A study of Mus musculus with 7 samples.

Results

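Immediate early genes and Myc were compared between mouse fibroblasts, hepatocyte-like cells made from such fibroblasts, and adult hepatocytes. The 10 genes are Fos, Fosb, Fosl1, Fosl2, Jun, Junb, Egr1, Atf3, Ier3 and Myc, taken as every probe whose current gene symbol is one of these. They are 10 of the 27583 genes and unnamed units on the array and are read by 14 probes, because Junb and Fosl2 have 2 probes each and Myc has 3. All 10 were among the 19135 genes tested, that is, genes with a probe detected above background throughout 1 group or more. Total RNA of C57BL/6 cells was measured on 7 single-colour Agilent arrays. Mouse embryonic fibroblasts (MEFs), the starting cells, came from separate preparations of embryos at 13.5 days post coitum and gave 3 arrays (MEF 1, 2 and 3). Induced hepatocyte-like (iHep) cells were made from MEFs, and 3 types, called 4α1, 4α2 and 4α3 in the labels and types 1, 2 and 3 here, gave 1 array each. Hepatocytes from the liver of adult mice gave 1 array. The study is known to have made iHep cells with the transcription factor Hnf4a and a Foxa factor. What the last digit of a type stands for, whether a type is a clone and how many animals were pooled are not given in the sources used here.

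Immediate early genes are switched on within minutes of a growth factor, cytokine or stress signal, without new protein synthesis, through kinases that act on transcription factors already bound at their promoters. Fos and Jun proteins pair through leucine zippers to form AP-1, which binds TGACTCA sites. Egr1 is a zinc finger factor, Atf3 a stress-induced bZIP factor that often represses, and Ier3 a short protein that affects cell survival. Myc, a bHLH-zipper factor that pairs with Max at CACGTG sites, is induced by the same signals and drives growth and ribosome production. In the liver, these genes are known for their burst after partial hepatectomy and during the isolation of hepatocytes.

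MEF 2 and MEF 3 differed by less than repeated spots of a probe on 1 array differ, so they were averaged and counted as 1 sample (MEF n = 2, iHep n = 3, hepatocyte n = 1). MEF 1 and all iHep arrays shared slide 1, MEF 2 and MEF 3 shared slide 2 and had another scan day, and the hepatocyte array was alone on slide 3, so slide and group cannot be told apart for hepatocytes. The 75th percentile of signal ran from 625 to 1585, with 60.2% to 68.7% of probes detected above background. Of 10 hepatocyte markers, 2 were well above background on each MEF array, 8 or 9 on the iHep arrays and 10 in hepatocytes. These markers include Hnf4a, itself a factor used to make iHep cells. All 10 fibroblast markers were above it on the MEF and iHep arrays. All 8 macrophage markers and all 6 endothelial markers were above background on the hepatocyte array, where Clec4f, a Kupffer cell lectin, had a level of 1.43 and Cdh5, an endothelial cadherin, a level of -0.02. On each MEF array, 7 of the 8 macrophage and 4 of the 6 endothelial markers were above it. The macrophage markers did not move together. Cd68 was at -3.16 in hepatocytes and -0.11 to 0.20 in MEF, and C1qc at 0.16 and 0.41 to 1.16. Levels are log2 signals relative to the 75th percentile of the array. In such bulk samples, fewer cells of a type and less RNA per cell cannot be told apart.

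The levels of 9 of the 10 genes followed 3 patterns, with Jun outside them. Myc and Junb were high on every iHep array. Fos, Fosb, Egr1 and Atf3 were high in iHep type 3 and far lower in types 1 and 2. Fosl1, Fosl2 and Ier3 were low in hepatocytes and nearer to each other in MEF and iHep. Among the iHep types, type 3 had the highest level of each of the 10 genes. How many of all tested genes were highest in type 3 was not counted, so this cannot be set against an overall share.

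**Figure D1:**
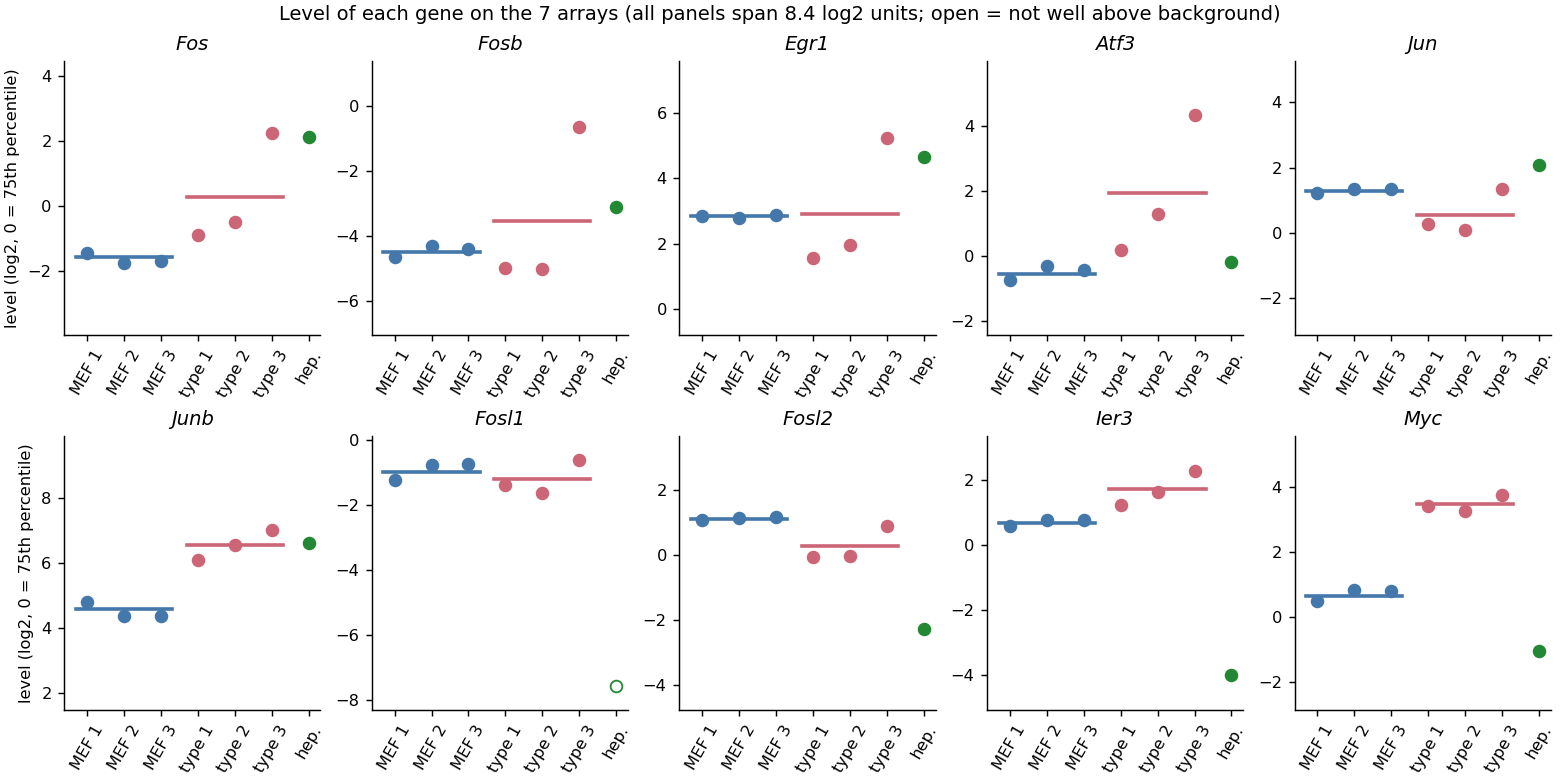
Level of each gene at its brightest probe on the 7 arrays, as log2 signal relative to the 75th percentile of the array. Lines are group means (MEF n = 2 after averaging MEF 2 and MEF 3, iHep n = 3); Fos, Fosb, Egr1 and Atf3 have 1 iHep array far above the others, whereas the 3 iHep arrays of Myc lie between 3.24 and 3.75.

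The comparison of iHep with MEF asks how the induced cells differ from the cells they came from. Differences are given ± the standard error from limma, with Benjamini-Hochberg adjusted p-values over all 19135 genes, and a gene was called at an adjusted p under 0.05. Of the 10 genes, Myc and Junb rose and 0 fell, while 3 were higher and 0 lower at an unadjusted p under 0.05. Over all tested genes 10% were called higher and 13.3% lower. The median difference of the 10 genes was 0.996, against -0.05 over all tested genes, and 7 of the differences were positive. The iHep and MEF arrays did not overlap for 6 of the 10 genes (Myc, Junb, Ier3, Atf3, Fos and Fosl2), near the 56.3% of all tested genes without overlap.

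Myc had levels of 0.48, 0.83 and 0.80 on the MEF arrays and of 3.41, 3.24 and 3.75 in iHep types 1, 2 and 3, against -1.05 in hepatocytes. The groups were fully separated, in the order iHep, MEF, hepatocyte, and the iHep types differed among themselves by no more than 1.43-fold. Myc rose by 2.82 ± 0.24 in iHep over MEF (7.05-fold, 95% interval of the log2 difference 2.20 to 3.44, adjusted p = 0.00282). It was lower in hepatocytes than in MEF, by -1.70 ± 0.33 (3.24-fold, adjusted p = 0.0105), and 22.9-fold higher in iHep than in hepatocytes (4.51 ± 0.31, adjusted p = 0.000603). Within slide 1, types 1, 2 and 3 stood 2.93, 2.76 and 3.27 above MEF 1. The spread over the iHep types was ordinary for Myc, with an SD of 0.26 that exceeded the SD of 46.0% of tested genes.

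The 3 probes of Myc lie on chromosome 15 of build mm8 at 61819627 to 61819687, 61819528 to 61819587 and 61819036 to 61819095. Their differences between iHep and MEF were 2.82, 2.81 (adjusted p = 0.00278) and 2.70 (adjusted p = 0.00479). Between hepatocytes and MEF, the first and second probe were called, at -1.70 and -1.63 (adjusted p = 0.0115), whereas the third, the dimmest, was not (-1.12 ± 0.38, adjusted p = 0.0590). The first probe is printed as 10 spots on each array, and the SD of their log2 signal was 0.0411 to 0.0819, which measures the noise within an array and not that between samples.

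Junb, the AP-1 subunit that is often set against Jun in growth control, had levels of 4.78, 4.36 and 4.36 in MEF, 6.07, 6.55 and 7.01 in iHep types 1, 2 and 3, and 6.60 in hepatocytes. Each iHep array and the hepatocyte array lay above each MEF array, and the hepatocyte level fell among those of the iHep types. Junb rose by 1.97 ± 0.34 in iHep (3.92-fold, adjusted p = 0.0173) and by 2.03 ± 0.46 in hepatocytes (4.09-fold, adjusted p = 0.0170) over MEF. The call in iHep was lost within slide 1, where the difference was 1.76 (adjusted p = 0.107), and without MEF 1 (2.18, adjusted p = 0.0755). The call in hepatocytes was lost under quantile normalization, at 1.12 (adjusted p = 0.101), with the authors' processed values, at 1.12 (adjusted p = 0.103), and with scan day as a block, which leaves MEF 1 as the MEF array compared (1.82, adjusted p = 0.0685). Between iHep and hepatocytes Junb differed by -0.06 ± 0.43 (adjusted p = 0.916, 95% interval -1.17 to 1.04), and the sign turned under quantile normalization (0.97).

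The second Junb probe overlaps the first on chromosome 8 of build mm8, at 87867049 to 87867108 against 87867087 to 87867146. It gave 1.86 ± 0.34 (adjusted p = 0.0204) for iHep over MEF, close to the first probe. In hepatocytes the probes disagreed, since the second stood 3.17 ± 0.46 above MEF (adjusted p = 0.00436) and above all iHep types, with a level of 6.89 against 5.03, 5.66 and 6.06. Its difference between iHep and hepatocytes, -1.31 ± 0.43, was not called (adjusted p = 0.0570).

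**Figure D2:**
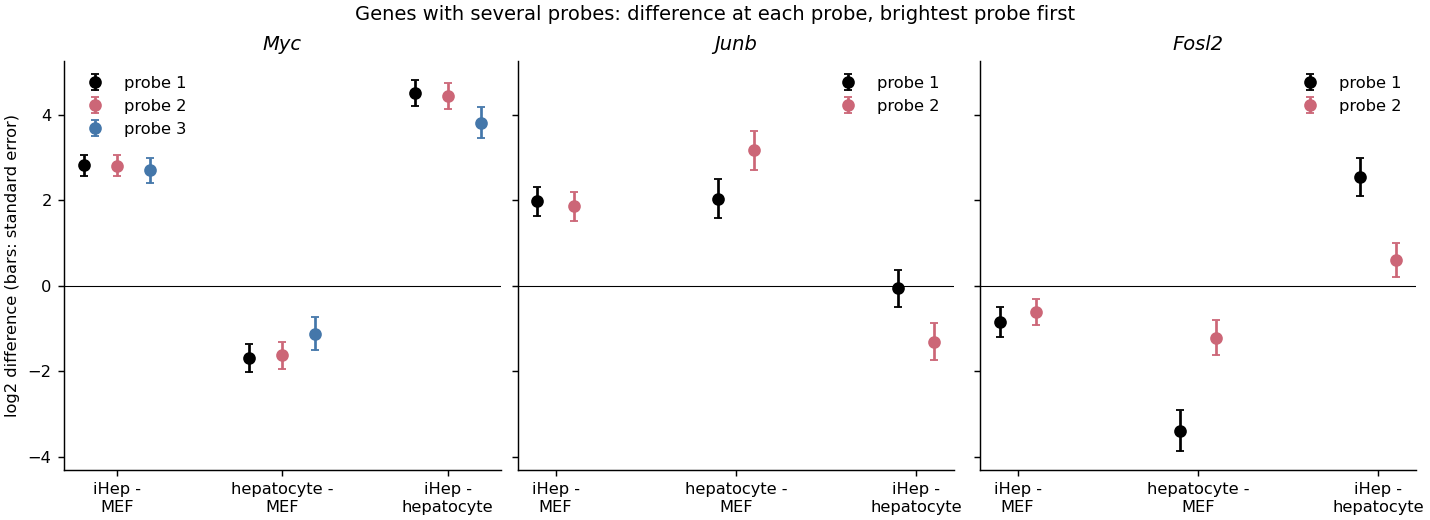
Log2 difference between groups at each probe of the genes with several probes, with standard errors as bars. The 3 Myc probes gave 2.82, 2.81 and 2.70 for iHep minus MEF, while the Junb probes differed in hepatocytes (2.03 and 3.17 over MEF) and the Fosl2 probes differed in size there (-3.39 and -1.22).

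Ier3 had levels of 0.58, 0.76 and 0.76 in MEF, 1.22, 1.63 and 2.28 in iHep types 1, 2 and 3, and -3.99 in hepatocytes. All iHep arrays lay above all MEF arrays, but the difference of 1.04 ± 0.35 was not called (adjusted p = 0.0973). It was called with 3 separate MEF samples (1.01, adjusted p = 0.0366). Ier3 was 25.3-fold lower in hepatocytes than in MEF (-4.66 ± 0.47, adjusted p = 0.00152) and 52.0-fold higher in iHep than in hepatocytes (5.70 ± 0.45, adjusted p = 0.000853). Its probe covers bases 35430636 to 35430695 of chromosome 17 in build mm8.

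The Fos-related genes Fosl1 and Fosl2 and the AP-1 partner Jun were not called between iHep and MEF. Fosl1, which encodes Fra-1 and is itself an AP-1 target in fibroblasts, had levels of -1.22, -0.76 and -0.74 in MEF and -1.37, -1.62 and -0.60 in the iHep types, so the groups overlapped. The difference was -0.21 ± 0.37 (adjusted p = 0.718), and within slide 1 it was 0.02. Fosl2, which encodes Fra-2, had levels of 1.08, 1.16 and 1.18 in MEF and -0.06, -0.03 and 0.91 in the iHep types (-0.85 ± 0.36, adjusted p = 0.152). Jun had levels of 1.21, 1.34 and 1.35 in MEF and 0.26, 0.07 and 1.33 in the iHep types (-0.73 ± 0.43, adjusted p = 0.275). In both genes types 1 and 2 lay below every MEF array, while type 3 lay among the MEF arrays for Jun and just below them for Fosl2. Without type 3, the difference was called for Fosl2 (-1.16 ± 0.17, adjusted p = 0.0196) and Jun (-1.11 ± 0.18, adjusted p = 0.0259). Those calls cover types 1 and 2 only, and their smaller errors follow from leaving out the array that stood apart.

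**Figure D3:**
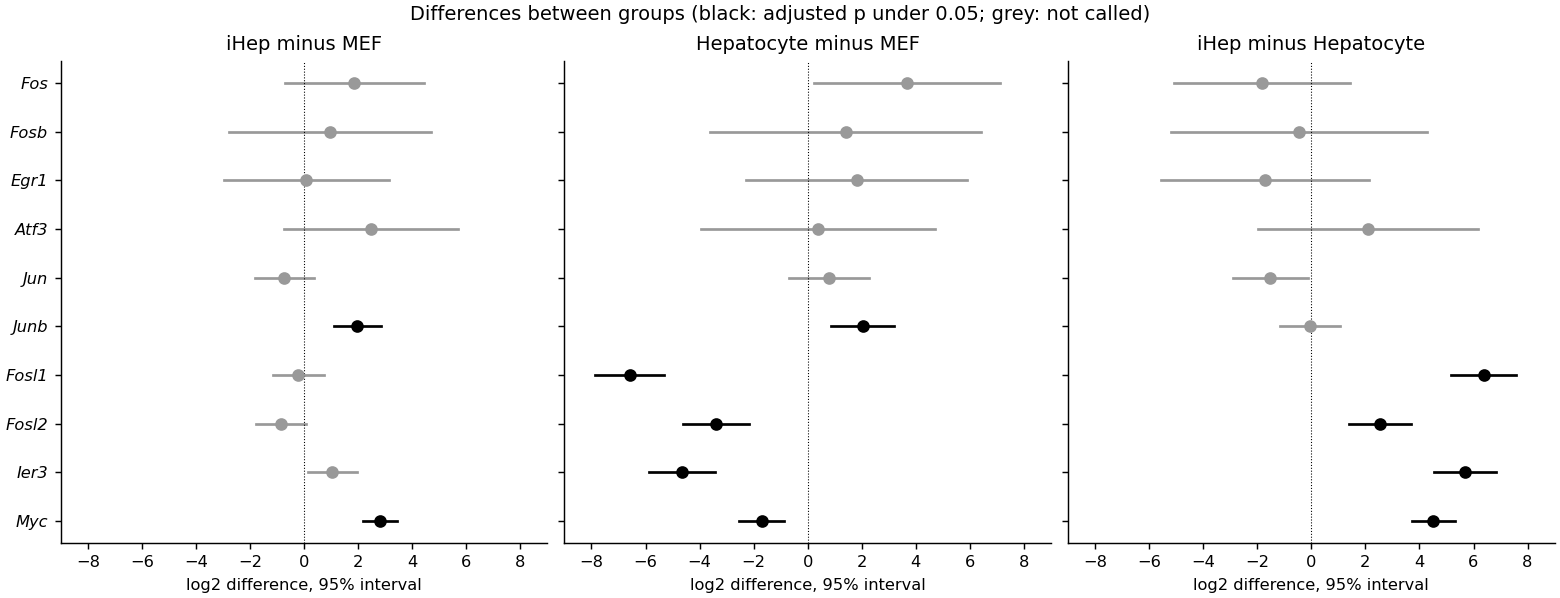
Log2 differences between groups for each gene, with 95% intervals from limma; black marks an adjusted p under 0.05. Myc and Junb were called higher in iHep than in MEF, Fosl1, Fosl2, Ier3 and Myc were called lower in hepatocytes than in MEF and in iHep, and the intervals of Fos, Fosb, Egr1 and Atf3 are wide.

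The comparison of the iHep types with each other has 1 array per type on 1 slide and so has no test. Fos, Fosb, Egr1 and Atf3, 4 of the 10 genes, were more than 4-fold higher in type 3 than in each of types 1 and 2. This holds for 0.868% of all tested genes (166 of 19135), and another 327 were more than 4-fold lower in type 3. None of the 10 genes was among the latter. With median scaling and with the authors' processed values, both tried after the data had been seen, the same 4 genes were past 4-fold. Type 3 again had the highest level of all 10 genes, a count that has no overall share beside it.

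Fos had levels of -1.43, -1.74 and -1.70 in MEF, -0.88 and -0.49 in types 1 and 2, 2.24 in type 3 and 2.11 in hepatocytes. The order ran from MEF through types 1 and 2 to hepatocytes and type 3, and the last pair differed by 0.14. Fos in type 3 was 8.72-fold above type 1 and 6.67-fold above type 2. The probe, on chromosome 12 at 86366053 to 86366112 of build mm8, is printed as 10 spots, and the SD of their log2 signal on an array was 0.0558 to 0.0931.

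Fosb, which encodes a Fos-family protein studied mostly in neurons, had levels of -4.65, -4.31 and -4.41 in MEF, -4.99 and -5.01 in types 1 and 2, -0.66 in type 3 and -3.10 in hepatocytes. Types 1 and 2 were the lowest of all arrays and nearly equal. Type 3 stood 20.1-fold and 20.4-fold above them, and above hepatocytes by 2.45 on the log2 scale.

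Egr1 had levels of 2.83, 2.80 and 2.88 in MEF, 1.56 and 1.95 in types 1 and 2, 5.26 in type 3 and 4.65 in hepatocytes. Types 1 and 2 lay below all MEF arrays, and type 3 lay above them, 13.0-fold over type 1 and 9.87-fold over type 2. The iHep mean of 2.92 ± 2.03 (SD, n = 3) averages over levels on both sides of the MEF mean of 2.84, and the difference between the means was 0.09 ± 1.18 (adjusted p = 0.966). Without type 3 it was -1.08 ± 0.22 and called (adjusted p = 0.0384). That call covers types 1 and 2 only, and its smaller error follows from leaving out the array that stood apart.

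Atf3 had levels of -0.74, -0.31 and -0.42 in MEF, 0.19 and 1.29 in types 1 and 2, 4.33 in type 3 and -0.17 in hepatocytes. Hepatocytes lay near MEF for this gene, and type 3 stood 4.49 above them on the log2 scale. Type 3 stood 17.6-fold above type 1 and 8.24-fold above type 2. Types 1 and 2 lay above all MEF arrays, by 0.92 and 2.02 against MEF 1.

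The differences between iHep and MEF of these genes were not called, at 1.86 for Fos (95% interval -0.71 to 4.43, adjusted p = 0.239), 0.95 ± 1.46 for Fosb (adjusted p = 0.674) and 2.49 ± 1.25 for Atf3 (adjusted p = 0.215). The SD over the iHep types was 1.70 for Fos, 2.51 for Fosb, 2.03 for Egr1 and 2.15 for Atf3, against a median of 0.29 over all tested genes, and 97.2%, 99.2%, 98.4% and 98.6% of tested genes had a smaller SD. The other 6 genes were 1.27-fold to 2.39-fold higher in type 3 than in types 1 and 2. Their SD was larger than that of 46.0% (Myc) to 82.1% (Jun) of tested genes. Type 3 also differed in its markers. Its 10 hepatocyte markers had a median level of 0.60 against 2.88 and 2.95 in types 1 and 2, and they did not move together. Alb, serum albumin, was at -0.29 against 6.36 and 7.83, and Hnf4a at 1.48 against -0.65 and -2.67. Hnf4a is also a factor used to make iHep cells, and the part of an introduced copy in its level was not tested. Its fibroblast markers had a median level of -0.24 against 1.77 and 1.94, and its 7 epithelial markers one of 6.19 against 4.53 and 4.76. The part of these values in the results was not tested. Macrophage markers above background numbered 3 of 8 in type 3 and 4 of 8 in types 1 and 2, and endothelial markers 1 of 6 in each, so no more of these markers were detected in type 3 than in the other types.

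**Figure D4:**
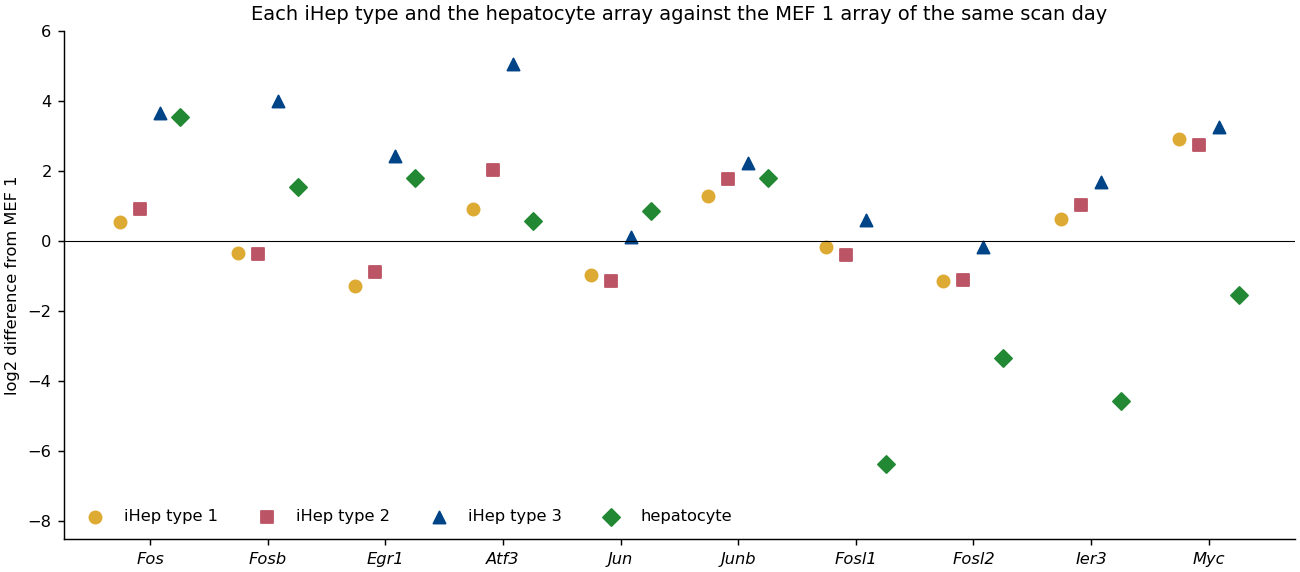
Log2 difference of each iHep type and of the hepatocyte array from the MEF 1 array, which shared their scan day; each point is 1 array. Type 3 lies 3.67, 4.00, 2.42 and 5.07 above MEF 1 for Fos, Fosb, Egr1 and Atf3, the iHep types lie together for Myc (2.76 to 3.27), and hepatocytes lie furthest below for Fosl1.

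Promoter sequence is shown for 3 of the genes high in type 3, with Junb and Jun beside them, because transcription factors that carry the signal to such genes bind near the start. Promoters were available for 7 of the 10 genes, but not for Egr1, Fosl1 or Myc. Each sequence is the 140 bases before the annotated start, from RefSeq on GRCm38.p6, 5′ to 3′ on the strand of the gene. Capitals mark TGACG, the core site of the CREB and ATF family, or its reverse complement. Only exact letters were searched, so near matches, such as tgacatca in Jun, are unmarked, and an unmarked sequence may still hold a related site.
Fos (chr12:85473750-85473889, plus strand): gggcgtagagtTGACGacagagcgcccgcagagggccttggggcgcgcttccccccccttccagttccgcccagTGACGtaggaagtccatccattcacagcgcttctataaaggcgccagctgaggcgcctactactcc
Fosb (chr7:19310046-19310185, minus strand): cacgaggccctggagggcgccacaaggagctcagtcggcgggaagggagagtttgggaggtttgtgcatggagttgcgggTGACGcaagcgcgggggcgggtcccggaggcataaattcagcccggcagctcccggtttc
Atf3 (chr1:191183334-191183473, minus strand): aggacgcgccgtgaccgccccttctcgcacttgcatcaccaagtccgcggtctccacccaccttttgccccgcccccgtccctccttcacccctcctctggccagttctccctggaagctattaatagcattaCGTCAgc
Junb (chr8:84978749-84978888, minus strand): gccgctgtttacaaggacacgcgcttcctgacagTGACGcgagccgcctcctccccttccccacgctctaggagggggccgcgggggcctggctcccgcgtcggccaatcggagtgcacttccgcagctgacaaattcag
Jun (chr4:95052223-95052362, minus strand): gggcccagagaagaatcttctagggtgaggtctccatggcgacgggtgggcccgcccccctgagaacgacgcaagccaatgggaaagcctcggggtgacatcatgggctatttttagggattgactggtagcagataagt

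TGACG was found on either strand within 250 bases before the start in 4 of the 7 promoters (Fos, Fosb, Atf3 and Junb), against 17.8% of all 32851 promoters of the table. It began 66 and 129 bases before the start of Fos, 60 before that of Fosb and 106 before that of Junb. In Atf3 it lay on the strand opposite to the gene, so that CGTCA is printed, 7 bases before the start. Neither the full AP-1 site TGACTCA (4.46% of all promoters) nor the Myc site CACGTG (6.02%) nor the CArG box of serum response factor (1.47%) was found in the 7 windows, so no match overlapped another of these motifs. Sites further than 250 bases from the start were not searched, so the lack of a match there does not mean that a gene lacks the site. The motifs were chosen with the levels known, and a match is a description of the letters only.

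The gene lists around these 10 genes showed which relatives shared the type 3 pattern. In the Egr family and Nab corepressor list 3 of 5 genes were more than 4-fold higher in type 3 than in each other type. The count was 3 of 39 for other immediate early genes and 1 of 16 for AP-1 partners and other bZIP factors. The share over all tested genes was 0.868%. Of these 7 genes, Nr4a1 was named by the rule, as the gene nearest to Egr1 in pattern, and the other 6 were picked out after their values had been seen. Egr2 had levels of -1.09, -0.75 and 2.41 in types 1, 2 and 3, Egr3 of -5.17, -4.29 and 0.20, and Egr4 of -5.88, -5.31 and -1.19. Unlike Egr1, these relatives were low in hepatocytes, at -2.29, -7.97 and -8.01. Nr4a1, an orphan nuclear receptor induced by the same signals, had 2.60, 2.68 and 5.87 in the types and 5.33 in hepatocytes. Plk3, a stress-responsive kinase, had 0.79, 0.65 and 3.05, and 4.03 in hepatocytes. Arc, a synaptic immediate early gene, had -1.17, -0.93 and 2.30, and -4.78 in hepatocytes. Batf2 had -4.70, -4.17 and -2.00, and -3.39 in hepatocytes. No gene was past 4-fold higher in type 3 among 11 ERK feedback inhibitors, 19 inducing kinases and factors or 16 AP-1 targets. The same held for the 16 genes of the integrated stress response list, 13 heat shock genes, 20 Myc network genes and 30 Myc targets. In the other direction, 1 AP-1 target and 1 Myc network gene were more than 4-fold lower in type 3 than in each other type.

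**Figure D5:**
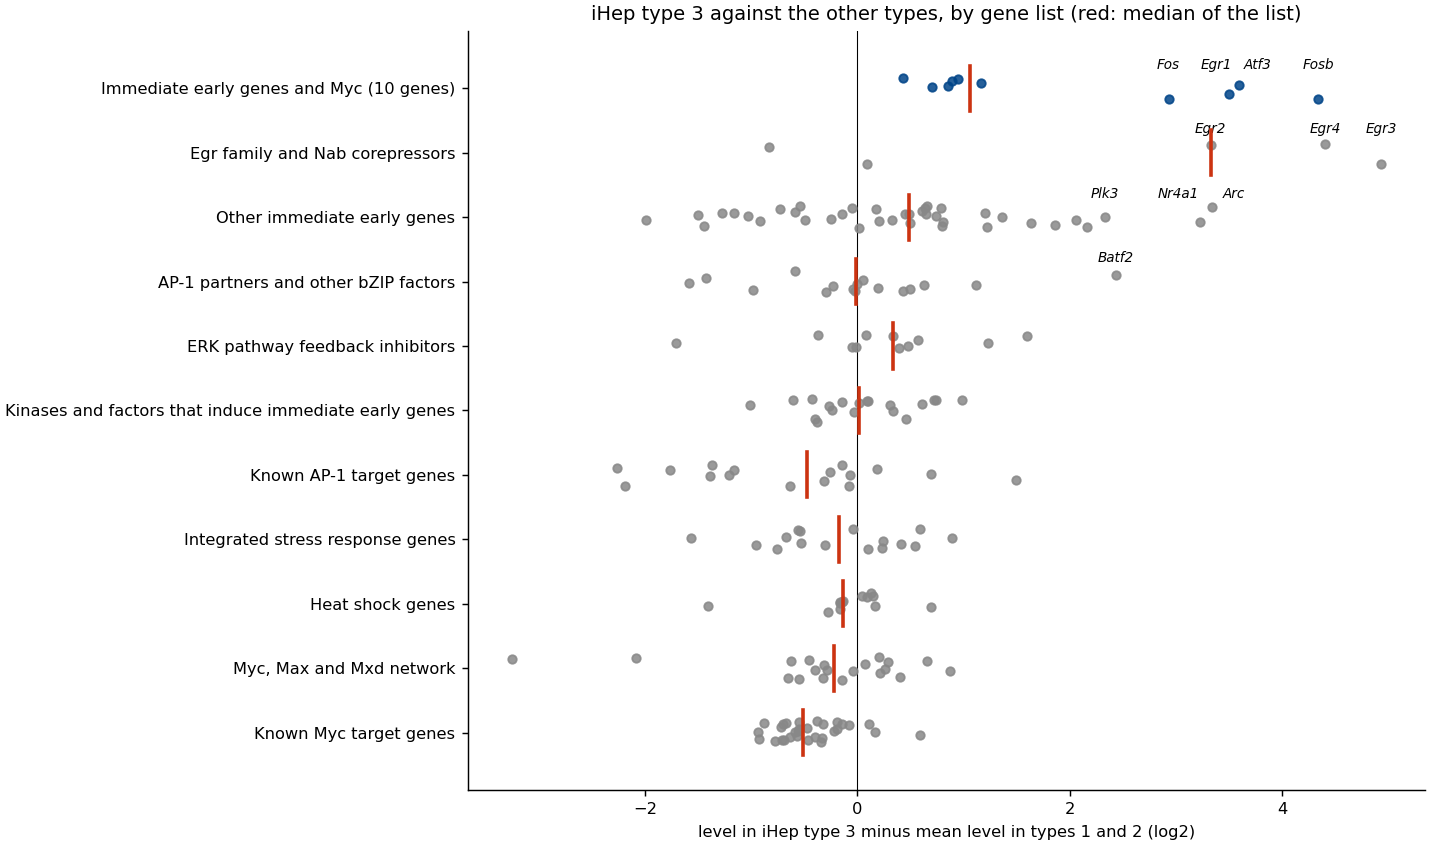
Level in iHep type 3 minus the mean level in types 1 and 2 (log2) for the 10 genes and for each gene list; each point is a tested gene, red bars are list medians and names mark genes more than 4-fold above each other type. The median was 1.06 for the 10 genes, 3.33 for the Egr and Nab list, 0.49 for other immediate early genes, and between -0.52 and 0.34 for the remaining lists, against 0.00 over all tested genes.

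The comparison of hepatocytes with MEF rests on 1 hepatocyte array, whose spread was taken to be like that of the other groups. Fosl1, Fosl2, Ier3 and Myc fell, and Junb rose. Over all tested genes 24.4% were called lower and 29.2% higher. The hepatocyte array lay outside the range of the MEF arrays for all 10 genes, as it did for 92.1% of all tested genes. The median difference of the 10 genes was 0.59, against 0.19 over all tested genes. Quantile normalization and the authors' processed values moved that overall median to 0.00, so relative to the median tested gene the hepatocyte differences lie about 0.19 lower than printed. Single genes could move further under these settings, as Junb did, which lost its call. Beside these values, the 8 cell division markers had a summed log2 level of 3.02 in hepatocytes, 5.35 to 5.66 in MEF and 5.31 to 5.89 in iHep. The macrophage markers summed to 2.90 in hepatocytes, 2.12 to 2.83 in MEF and -1.78 to -1.001 in iHep, and the endothelial markers to 2.63, 0.82 to 1.51 and -3.33 to -3.29. The part of these cells in the hepatocyte levels was not tested.

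Fosl1 was not well above background in hepatocytes, with a measured level of -7.57. It was at least 28.1-fold lower there than in MEF (adjusted p = 0.000675) and at least 24.2-fold lower than in iHep (adjusted p = 0.000737). Fosl2 had a level of -2.27 in hepatocytes, 10.5-fold below MEF (-3.39 ± 0.48, adjusted p = 0.00402) and 5.82-fold below iHep (adjusted p = 0.00919). Its second, dimmer probe, with levels of -5.46, -4.92 and -4.65 in iHep, gave smaller differences that were not called, -1.22 ± 0.41 against MEF (adjusted p = 0.0574) and 0.60 for iHep minus hepatocytes (adjusted p = 0.249). Fos was 12.8-fold higher in hepatocytes than in MEF, at 3.68 ± 1.34, and was not called (adjusted p = 0.0693). The differences of Egr1 (1.81 ± 1.59, adjusted p = 0.375), Fosb (1.40 ± 1.96, adjusted p = 0.571), Jun (0.80 ± 0.57, adjusted p = 0.287) and Atf3 (0.39 ± 1.68, adjusted p = 0.860) were not called either. Leaving out iHep type 3 changed no difference here but lowered the standard errors, for Fos from 1.34 to 0.29 and for Egr1 from 1.59 to 0.27. Fos, Egr1, Fosb and Jun were then past the threshold, and Atf3 was not. Type 3 was the array that stood apart for these genes, so the smaller errors follow from the choice of the array left out.

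The comparison of iHep with hepatocytes asks how far the induced cells were from their target. It shares arrays with the comparisons above. Fosl1, Fosl2, Ier3 and Myc were higher in iHep and 0 of the 10 genes were called lower, while 4 were higher and 1, Jun, was lower at an unadjusted p under 0.05. Over all tested genes 21.5% were called higher and 28.3% lower in iHep, with a median of -0.23, which quantile normalization moved to 0.02. Jun (-1.52 ± 0.54, adjusted p = 0.0681), Fos (-1.82 ± 1.26, adjusted p = 0.280) and Egr1 (-1.73 ± 1.50, adjusted p = 0.376) had negative differences that were not called. Those of Fosb (-0.45 ± 1.84, adjusted p = 0.853) and Atf3 (2.10 ± 1.59, adjusted p = 0.315) were not called. Against types 1 and 2 alone, the differences were -2.80 for Fos, -1.90 for Fosb, -2.89 for Egr1 and -1.91 for Jun. Leaving out type 3, the array that stood apart, lowered the standard error of Egr1 from 1.50 to 0.27. With 1 hepatocyte array besides, no call is drawn from that fit.

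Partners and relatives of AP-1 and Egr1 went in both directions. The shares of all tested genes called were 10% higher and 13.3% lower in iHep, and 29.2% and 24.4% in hepatocytes, each against MEF. Of 16 AP-1 partners and other bZIP factors, Mafk rose in iHep over MEF and 4 fell, among them Batf, Crem and Maf (median 0.20). Batf was at least 7.01-fold lower in iHep. Crem, a CREB family member, fell by 1.25 ± 0.17 in iHep (adjusted p = 0.00963) and rose by 2.30 ± 0.23 in hepatocytes (adjusted p = 0.00148), where Mafg rose as well. Jdp2, an AP-1 repressor, fell there by 6.30 ± 0.57 (adjusted p = 0.00107), and the list had a median of 0.16. Jund, the third Jun protein, was not called in iHep (0.46 ± 0.45, adjusted p = 0.498) or hepatocytes (0.17 ± 0.60, adjusted p = 0.826). Of the 5 genes of the Egr and Nab list, Nab2, a corepressor of Egr1, fell by 1.62 ± 0.36 in iHep (adjusted p = 0.0330) and 0 rose (0 at an unadjusted p under 0.05, median -0.31). In hepatocytes Nab1 rose by 1.51 ± 0.31 (adjusted p = 0.0127) and 0 fell (1 at an unadjusted p under 0.05, median -2.50).

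Of 39 other immediate early genes tested, 10 rose and 4 fell in iHep over MEF (median 0.63). The shares of all tested genes were 10% and 13.3%. In hepatocytes 8 rose and 16 fell (median -0.72), beside 29.2% and 24.4% of all tested genes. Areg, an EGF receptor ligand, rose by 6.70 ± 0.66 in iHep (adjusted p = 0.00395). Its levels were 1.49, 1.78 and 2.85 in types 1, 2 and 3 against a MEF mean of -4.66. Ptgs2, the inducible prostaglandin synthase, fell by 1.80 ± 0.40 in iHep (adjusted p = 0.0347) and was at least 56.8-fold lower in hepatocytes, where it was not well above background. Ier5l, with -1.68 ± 0.42 in iHep (adjusted p = 0.0469) and -6.10 ± 0.57 in hepatocytes (adjusted p = 0.00118), fell in both, and so did 2 further genes in iHep, Gadd45a and Ereg. Ccn2, a matrix-associated growth factor, fell by 6.75 ± 0.73 in hepatocytes (adjusted p = 0.00180). Ier2 was at 1.43 ± 0.65 in iHep and 2.02 ± 0.87 in hepatocytes, neither called (adjusted p = 0.179 and 0.107).

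Feedback inhibitors and inducers of the pathway had calls in both directions. Beside them, 10% of all tested genes were called higher and 13.3% lower in iHep over MEF. In hepatocytes these shares were 29.2% and 24.4%. Of 11 ERK feedback inhibitors tested, Dusp6, a phosphatase of ERK, rose in iHep by 2.04 ± 0.44 (adjusted p = 0.0309), while Dusp10, a phosphatase of stress kinases, fell by 1.20 ± 0.26 (adjusted p = 0.0300) and Spry4 fell (median -0.44). In hepatocytes Dusp6 (2.01 ± 0.59, adjusted p = 0.0378) and Dusp1 (3.18 ± 0.89, adjusted p = 0.0334) rose, and Spry1 (-4.22 ± 0.91, adjusted p = 0.0150), Spred1 and Spred2 fell (median -0.59). Of 19 kinases and factors that induce immediate early genes, Mapk14 rose in iHep and Elk3 (-1.50 ± 0.20, adjusted p = 0.00845) and Rps6ka3 (-0.96 ± 0.25, adjusted p = 0.0497) fell, with a median of 0.13. In hepatocytes 2 rose, among them Mapk8, and Elk3, Rps6ka3, Srf (-1.86 ± 0.46, adjusted p = 0.0235) and its cofactor Mrtfa (-2.59 ± 0.24, adjusted p = 0.00115) fell, with a median of 0.23.

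Known AP-1 targets were mostly lower in hepatocytes. Of 16 tested, 13 fell and 1, Vegfa, rose in hepatocytes against MEF (median -4.58). Of all tested genes, 24.4% were called lower and 29.2% higher. The matrix proteases Mmp3 and Mmp13 were at least 462-fold and at least 44.1-fold lower there, the cell cycle inhibitor gene Cdkn2a at least 88.2-fold, and Cd44, a hyaluronan receptor, fell by 7.86 ± 0.44 (adjusted p = 0.000338). Many of these are fibroblast genes as well, and 8 of the 10 fibroblast markers were above background in hepatocytes at a summed log2 level of 3.54, against 9.68 to 9.82 in MEF, and their part in these values was not tested. In iHep, Plaur rose and Mmp9, Plau, Timp1, Il11 and Tgfb1 fell (median -0.58), beside 10% of all tested genes called higher and 13.3% lower.

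The partners and known targets of Myc were examined beside Myc itself. Of 20 genes of the Myc, Max and Mxd network, 2 rose in iHep and 0 fell (1 at an unadjusted p under 0.05), with a median of 0.02. Of all tested genes, 10% were called higher and 13.3% lower. Mxd1, which competes with Myc for Max, rose by 2.43 ± 0.21 (5.40-fold, adjusted p = 0.00280). Mlxipl, a glucose-responsive factor of hepatocytes also called ChREBP, rose by 5.13 ± 1.30 in iHep (adjusted p = 0.0477) and by 12.24 ± 1.75 in hepatocytes (adjusted p = 0.00415). Max was not called in iHep (-0.37 ± 0.33, adjusted p = 0.461) and fell by 1.48 ± 0.44 in hepatocytes (adjusted p = 0.0387). Mycn was at -1.82 in both (adjusted p = 0.316 and 0.370). In hepatocytes Mnt and Mycbp also rose, Mxd3 was at least 31.8-fold lower, and Mlxip and Ruvbl2 (-1.64 ± 0.22, adjusted p = 0.00358) fell, with a median of -0.28. There 29.2% of all tested genes were called higher and 24.4% lower.

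Of 30 known Myc targets, 0 rose in iHep over MEF (2 at an unadjusted p under 0.05). One gene, Cdk4, fell (-1.14 ± 0.23, adjusted p = 0.0271), and the list had a median of 0.21. Of all tested genes, 10% were called higher and 13.3% lower, with a median of -0.05. In hepatocytes 3 rose (Hspd1, Tert and Ldha) and 8 fell, with a median of -0.68. There 29.2% of all tested genes were called higher and 24.4% lower, with a median of 0.19. The number of targets that fell was thus near the overall share. Those that fell included Cdk4 (-3.70 ± 0.31, adjusted p = 0.000898) and Ccnd2 (-7.67 ± 0.36, adjusted p = 0.000247), which drive the cell cycle, Cad (-1.95 ± 0.25, adjusted p = 0.00284), of pyrimidine synthesis, and Srm (-2.08 ± 0.43, adjusted p = 0.01335), spermidine synthase.

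Stress programmes were set beside Atf3 and Fos. Of all tested genes, 10% were called higher and 13.3% lower in iHep, and 29.2% and 24.4% in hepatocytes. In the integrated stress response Atf3 is a known target of Atf4. The list of 16 genes named after it also holds Xbp1, Atf6, Herpud1 and Hspa5, of other arms of the unfolded protein response. Of the 16, Slc7a11 (3.39 ± 0.24, adjusted p = 0.00176) and Herpud1 rose in iHep and 6 fell, with a median of -0.88. Those that fell included Ddit3 (-2.34 ± 0.36, adjusted p = 0.0131) and Psat1 (-2.34 ± 0.32, adjusted p = 0.00891). Atf4 itself was not called (-0.85 ± 0.27, adjusted p = 0.0865). In hepatocytes Herpud1, Xbp1 and Atf6 rose and 8 fell, led by Phgdh (-9.26 ± 0.78, adjusted p = 0.000908), with a median of -1.46. Of 13 heat shock genes, Hspb1 (1.22 ± 0.27, adjusted p = 0.0323) and Hsf2 (1.25 ± 0.19, adjusted p = 0.0123) rose in iHep and 0 fell (5 at an unadjusted p under 0.05), with a median of -0.16. In hepatocytes Hsf2 rose and Hspa1a (-3.87 ± 0.39, adjusted p = 0.00149), Hspb1 and Cryab (-5.15 ± 0.76, adjusted p = 0.00463) fell, with a median of -0.72. Where counts of 5 or fewer made genes outside the naming rule appear in these lists, they were named after their values had been seen.

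The genes nearest to each of the 10 genes in pattern were found by the root mean square distance between levels centred over the 7 arrays, among 15705 named tested genes. Fosl2 and Jun had the closest neighbours, Adgre5 (0.0776) and Limk2 (0.115) for Fosl2, and Phf1 (0.103) and Rab29 (0.125) for Jun. Those of Junb were Bmp7 (0.176) and H1f0 (0.205), that of Ier3 was Trpm4 (0.227), and those of Myc Upk3bl (0.250) and Slc12a2 (0.268). Egr1 was nearest to Nr4a1 (0.393), followed by Dennd3 (0.469), and Atf3 to Prss32 (0.291) and Gucy2c (0.467). Fosl1 was nearest to Eps8 (0.299) and Slc25a36 (0.307). The nearest to Fos, Tectb (0.417) and Sox17 (0.445), and to Fosb, Vmn2r89 (0.374) and Gng3 (0.379), were dim, being well above background on 2, 5, 2 and 3 of the 7 arrays. Within the 10 genes the closest pair was Fosb and Egr1, at 0.571.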

How the data were processed

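Processed intensity signals were deposited on a linear scale, 1 per spot, made with Agilent Feature Extraction 9.5.1.1 per the submitters' processing notes. Spot flags (other values, 0 or 1, per the file headers) mark spots well above background, saturated or outlying. The authors' table of processed intensity, made in a way the sources used do not state, correlated with the scanner signal of its own array at 0.9988 or more and served as an alternative.

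Outlier spots were left out, spots of a probe averaged, and each array's 75th percentile of log2 signal over 43379 non-control spots subtracted. Of 41138 probes kept, 24358 were named by accession and 8714 by symbol or synonym from RefSeq (GRCm38.p6), and the rest as in the file. The brightest probe stood for a gene. Group differences were fitted with limma 3.58.1 (R 4.3.3), all groups in 1 fit, tested on simulated data first. MEF 2 and MEF 3 were averaged, because their log2 differences were 0.495 to 0.925 times those that repeated spots predict (3.12 to 4.51 times for MEF 1 against MEF 2). The p-values reflect only the spread of these samples, in iHep that between types, and the number of arrays limits precision. A fold is "at least" where the dimmer group was not well above background: its level was then set to the lowest well above background on the array.

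Besides all 10 genes, the rule named from each of 10 gene lists up to 4 called genes with the largest differences and no overlap between groups, and direct partners, plus the 2 nearest genes in pattern. The 10 genes and the lists were chosen with earlier results of these data known. Dusp5, Lif and Hspa1b, of the lists, were matched to no probe, and Nr4a3 and Elk1 were not tested. Some genes the rule named are not reported here. Alternatives covered scaling, background correction, probe filter, probe choice, slide, scan day, MEF 2 and MEF 3 as separate samples, and each replicate left out. Scan day as a block was added after the data had been seen.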

Additional observations from a re-analysis of the deposited data

Results flagged for a closer look

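Egr1, Fosb and Fosl1 differed in direction between iHep types when each was set against MEF 1 on the same slide. Egr1 was 2.424 above MEF 1 in type 3 on the log2 scale, but at -1.277 in type 1 and -0.8785 in type 2. Fosb was 3.996 above MEF 1 in type 3, but at -0.3344 and -0.3554 in types 1 and 2. Fosl1 was 0.6174 above MEF 1 in type 3, but at -0.1534 and -0.3987 in types 1 and 2, and MEF 2 and MEF 3 themselves stood 0.46 and 0.48 above MEF 1. With 1 array per type, these differences between types were not tested.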

How the results depend on the processing

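Of 567 values of the 10 genes under 21 other settings, 529 kept their direction and their side of the threshold. Of the rest, 13 changed sign, 16 others became called and 9 others lost their call. Each value was counted once, so Egr1 in iHep minus MEF without type 3, which changed sign and was also called, is among the 13. Except where stated, the cause was not tested. Between iHep and MEF, the slide block, slide 1 alone and the added scan day block each left 1 gene called higher (Myc) and 1655 genes over all genes, from 2 and 4465, with fewer samples compared, and Fosl1 at 0.0218. These settings and leaving out both MEF 2 and MEF 3 gave identical values for iHep minus MEF, so they are not separate alternatives there. Over all genes, 7311 were called with 3 separate MEF samples and 6869 with slide as a random block. Leaving out replicates gave 1 to 2 genes higher, 0 to 3 lower, and 1618 to 4642 over all genes, lowest without MEF 1 and at 2873 without iHep type 1, with Fosb between -0.49 (without type 3) and 1.68 and Egr1 between -1.08 (without type 3) and 0.77. Between hepatocytes and MEF, 2 genes were called higher with 3 separate MEF samples and with slide as a random block, where Fos joined Junb, and 0 under quantile normalization, the authors' table and the scan day block. Leaving out replicates gave 0 to 5, highest without iHep type 3. Between iHep and hepatocytes, 1 gene (Jun, adjusted p = 0.0393) was called lower with 3 separate MEF samples and 0 to 4 with replicates left out. Junb turned to 0.12 under median scaling, 0.97 under quantile normalization, 0.0410 under normexp and 0.97 with the authors' table. With replicates left out it ran from -0.30 to 0.18 (without iHep type 1), and Fosb from -1.90 to 0.28 (without type 2; 0.27 without type 1). Fosl1 kept its calls against hepatocytes under normexp, which adds an offset of 50, at -2.48 for hepatocytes minus MEF and 2.34 for iHep minus hepatocytes, and Fosl2 at 1.57 for iHep minus hepatocytes with all probes averaged. Requiring signal on all 7 arrays left Fosl1 untested.

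Whether MEF and iHep arrays of the same number come from the same preparation is unknown. Deviations of same-numbered arrays correlated at 0.03, -0.02 and -0.0006 over 19135 genes, and those of differently numbered arrays at -0.04 to 0.03. These values cannot decide the question, because MEF 2 and MEF 3 differed by less than repeated spots do and so cannot be told apart. With a replicate block and 3 separate MEF samples, 5463 genes were called and 3 of the 10 rose (Myc, Junb and Ier3), Ier3 at 1.01 (adjusted p = 0.0482). Types cannot be told from their single arrays, hepatocytes from their slide, and dim Fosb signals (24.1 to 28.0 in types 1 and 2) limit its folds.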
